A study of Rattus norvegicus with 6 samples.

Results

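Collagens and laminins are the scaffold proteins of the extracellular matrix, and the chains that build them were followed here in the liver of rats given faecal microbiota transplantation (FMT). The chains were taken by gene name, as every row of the deposited table named Col or Lam followed by the number and letter of a collagen or laminin chain. This gave 55 rows among the 30957 genes of the table, with 54 different names, since Col23a1 stood on 2 gene identifiers. Of these rows, 44 were collagens and 11 were laminins. No count was found in any liver for 10 rows, 12 had counts but were too low for testing, and 33 were tested. Col4a3, Col21a1 and Lamb4 are not among these rows and were not analysed here.

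Liver RNA was sequenced from 3 rats in each of 2 groups, out of 6 recipients per group, to ask how gut microbes shaped by androgen act on a host that was not itself injected. All recipients were female Sprague Dawley rats, bought at an age of 3 weeks and kept 2 to a cage, and every one first had 3 courses of 7 days of ampicillin, neomycin, metronidazole and vancomycin in the drinking water. The t-PBS group was then gavaged daily for 14 days with faeces of donors injected with phosphate buffer saline (PBS). The t-DHEA group was gavaged in the same way with faeces of donors injected with the androgen precursor DHEA. Those donors were injected for 35 days in all, the last 14 of them during the gavage. Recipients themselves were given no DHEA injection, and the livers used here include no recipients without antibiotics or without transplantation. Each library was made from snap-frozen liver of 1 rat. Because donor faeces were pooled within a donor group, a difference between groups cannot be told apart from a difference between the 2 donor pools.

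A collagen chain is useful to a tissue only as part of a triple helix of 3 chains. Fibrillar chains (types I, III, V and relatives) form the banded fibrils of the liver capsule, portal tracts and central veins. Type IV chains form the sheet of basement membranes, where they meet the laminins, which are cross-shaped trimers of an alpha, a beta and a gamma chain. Type VI chains form beaded microfilaments that lie between fibrils, cells and basement membranes. In liver most collagen is made by hepatic stellate cells and portal fibroblasts, with smaller parts from endothelium, bile duct epithelium and the mesothelium that covers the organ, while collagen XVIII, which carries endostatin at its end, is made by the hepatocyte.

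The libraries held 12348511 to 14316886 counts on genes, and the 2 groups overlapped in depth. A gene at 0 in a liver could have had up to 3 counts there, which was 0.21 to 0.248 CPM (counts scaled to a library of 1000000), and this limit covers counting error only. CPM is used below to follow 1 gene across livers, after scaling by the trimmed mean of M-values (TMM), and FPKM, which divides by gene length, to compare genes with each other. Markers of the hepatocyte were high in every liver, with a summed level of 130100 to 158100 CPM. Markers of the mesothelium were low and uneven, with a summed level of 39.7, 45.8 and 42.1 CPM in the t-PBS group and of 21.5, 3.29 and 31.6 CPM in the t-DHEA group. Here and below, the values of a group stand in the order of rats 1, 2 and 3. The t-DHEA rat 2 liver therefore stood apart.

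All differences are t-DHEA against t-PBS, from edgeR's quasi-likelihood test on the counts of all 12210 genes that passed its filter. A gene was called at an unadjusted p under 0.05 with a fold-change over 1.2, the criteria of the study. By this rule 604 genes were called, or 4.95% of those tested, with 364 lower (2.98%) and 240 higher (1.97%) in t-DHEA. No gene of the table had an adjusted p under 0.05 in this test, while 634 had an unadjusted p under 0.05. By the same threshold on the adjusted p, edgeR's likelihood-ratio test gave 28 genes and DESeq2 gave 24. The calls on single chains are thus calls before correction for multiple testing.

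Among the chains with counts, those of collagen XVIII and collagen III had the highest levels in these livers. Rows at 0, such as Col1a2, add nothing to the shares below, and a row at 0 need not mean low expression. Col18a1 had a mean of 107 FPKM over the 6 livers and made up 35.8% of the summed FPKM of all chains. Col3a1, the single chain of collagen III, followed with 80.6 FPKM or 26.9%. Next in order were Col6a1 with 6.69%, Col6a2 with 5.01%, Col4a1 with 4.68%, Col14a1 with 3.54% and Col4a2 with 3.02% of that sum. The levels of Col6a2 and Col4a1 overlapped across livers, as did those of Lamc1, Col5a1, Col1a1 and Col5a2, which lay between 4.87 and 5.23 FPKM. The tested laminins were low by comparison, from 0.186 FPKM for Lamb3 to 5.23 FPKM for Lamc1. At the bottom of the tested chains stood Col11a2 with 0.139 FPKM, a chain known from cartilage.

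**Figure D1:**
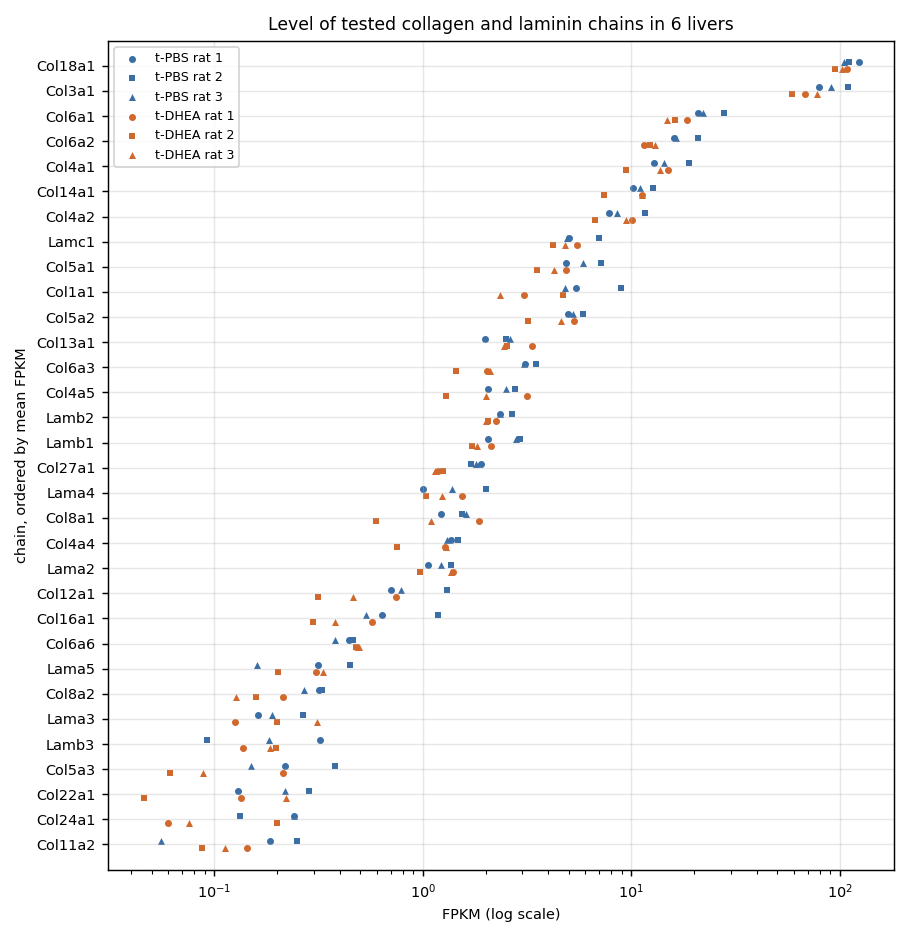
FPKM (log axis) of 32 of the 33 tested chains in each of the 6 livers, ordered by mean FPKM. Blue symbols are t-PBS and orange symbols t-DHEA livers, and the shape gives the rat number. Col18a1 and Col3a1 lie apart from the rest at the top, and t-DHEA rat 2 (orange squares) is often the leftmost point.

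Of the 33 tested chains, 29 had a lower and 4 a higher estimate in t-DHEA (24 lower with t-DHEA rat 2 left out), and the median log2 fold change was -0.28 beside 0.0013 over all genes tested. Called lower were 11 chains, or 33.3% of those tested, against the background of 2.98% of all genes, and 0 chains were called higher, against 1.97%. In 9 chains each t-DHEA value was under each t-PBS value, and in 1 chain each was above. Over all genes tested, 5.42% were apart in the first direction and 4.67% in the second. Col8a2, which is among the 11 and the 9, passed the filter through the t-PBS livers, where it was higher. The lowest adjusted p of any chain was 0.687 in edgeR's quasi-likelihood test. The number called rested partly on single livers, since it was 4 when t-PBS rat 2 was left out. Leaving out t-DHEA rat 1, 2 or 3 gave 15, 6 and 7 chains. Chains vary together within a liver, so that the 33 are not 33 independent observations.

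That common movement was visible in the single livers. The t-PBS rat 2 liver was the highest of the 6 for 21 of the 33 chains, whereas it was the highest for 17.9% of all genes tested. At the other end, t-DHEA rat 2 was the lowest of the 6 for 18 of the 33 chains and the highest for 0, against 18.9% and 18.6% of all genes. The summed level of all chains was 1589, 1796 and 1581 CPM in t-PBS, against 1478, 1206 and 1431 CPM in t-DHEA. The groups did not overlap in this sum, and the same 2 livers formed its top and its bottom. In bulk tissue such as this, fewer cells of a type and less RNA per cell cannot be told apart.

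**Figure D2:**
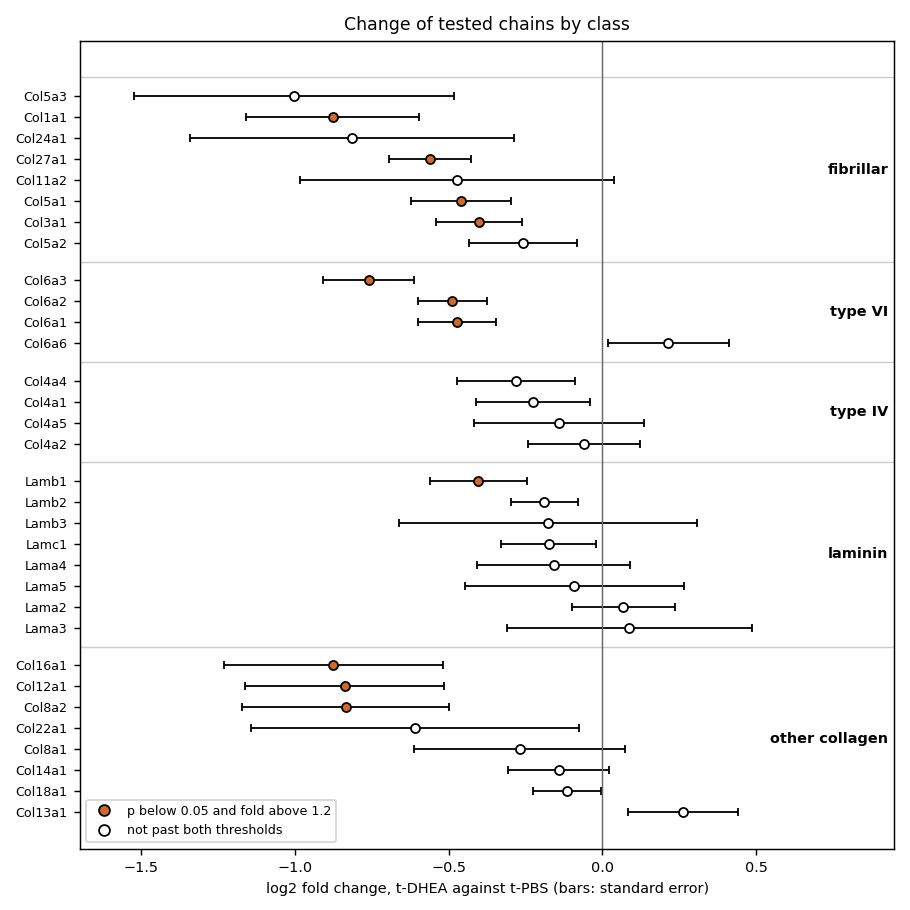
Log2 fold change of 32 of the 33 tested chains, t-DHEA against t-PBS, with its standard error as a bar, grouped by class. Filled points are the 11 chains called lower. The fibrillar chains and 3 of the 4 type VI chains lie left of 0, while the type IV chains and most laminins lie closer to it.

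The type VI chains gave 3 calls among 4 tested chains, against 2.98% of all genes tested called lower. Here and below, differences between classes of chains were not tested. Of 6 rows, Col6a4 had no count in any liver and Col6a5 had 14 counts in all, leaving Col6a1, Col6a2, Col6a3 and Col6a6. The first 3 are the partners of the common collagen VI trimer, and all were called lower. The 250 bases before the start of Col6a3 and of Col6a1 are shown because these chains, which must meet in 1 protein, lie on different chromosomes and share none of the 4 motifs searched. The sequences are from RefSeq, build GRCr8, in the direction of the gene, with the AP-1 motif in capitals. Col6a3 is at chr9:98886959-98887208 on the minus strand and Col6a1 at chr20:11905440-11905689 on the plus strand.
Col6a3: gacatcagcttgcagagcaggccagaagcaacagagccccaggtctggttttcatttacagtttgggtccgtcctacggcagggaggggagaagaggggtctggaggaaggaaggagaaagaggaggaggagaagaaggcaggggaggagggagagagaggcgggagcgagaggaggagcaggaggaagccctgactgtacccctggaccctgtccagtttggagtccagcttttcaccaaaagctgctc
Col6a1: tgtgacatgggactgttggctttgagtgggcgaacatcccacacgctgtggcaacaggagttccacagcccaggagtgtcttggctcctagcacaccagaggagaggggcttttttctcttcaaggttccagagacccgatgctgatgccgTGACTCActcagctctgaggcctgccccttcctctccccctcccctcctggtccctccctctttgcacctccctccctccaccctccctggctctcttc
The motifs were the GC box (GGGCGG), the CCAAT box, the TATA box (TATAAA) and AP-1 (TGANTCA), searched on both strands. AP-1 letters were found before Col6a1 and before 6.34% of all 33469 RefSeq promoters, and none of the 4 was found before Col6a3.

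Col6a3, the long chain that gives the trimer its extended end, lies on chromosome 9 from 97926787 to 98004546 of Rnor_6.0. Its counts were 547, 562 and 500 in t-PBS, against 308, 239 and 338 in t-DHEA. This was 39.1 ± 1.98 CPM in t-PBS and 23.1 ± 4.57 CPM in t-DHEA (SD, n = 3), a log2 fold change of -0.76 with a standard error of 0.15. The groups were apart, and t-DHEA rat 2 was the lowest. The unadjusted p was 0.00068 and the adjusted p 0.687 in edgeR's quasi-likelihood test. Col6a3 was also the 1 chain with an adjusted p under 0.05 in DESeq2 (0.0109) and in edgeR's likelihood-ratio test (0.0113). In the other fits with all 6 livers its adjusted p ran from 0.535 with limma on FPKM to 0.979 with a block for rat number in edgeR's quasi-likelihood test.

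Col6a1 and Col6a2, the shorter partners, are neighbours on chromosome 20, with 97.9 kb between them in the files' annotation. Col6a2 had 843, 1002 and 804 counts in t-PBS and 527, 613 and 629 in t-DHEA, which was 64.5 ± 8.11 against 46.0 ± 2.54 CPM (SD, n = 3). Its log2 fold change was -0.49 ± 0.11 (SE) with an unadjusted p of 0.00192, and the groups did not overlap. Col6a1 had 932, 1128 and 913 counts in t-PBS and 713, 681 and 605 in t-DHEA, or 72.4 ± 9.43 against 52.1 ± 6.16 CPM (SD, n = 3). Here too the groups were apart, with a log2 fold change of -0.47 ± 0.13 (SE) and an unadjusted p of 0.00478. Both were highest in t-PBS rat 2, yet the lowest liver was t-DHEA rat 1 for Col6a2 and t-DHEA rat 3 for Col6a1. All 3 partners were called with each liver left out in turn, t-DHEA rat 2 included, and in the 7 other fits. Col6a1 and Col6a2, at folds of 1.39 and 1.40, did not reach a fold of 1.5.

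Col6a6, an alternative to Col6a3 in the trimer, did not share this direction. It had 43, 41 and 34 counts in t-PBS and 40, 44 and 44 in t-DHEA, and at 3.33 ± 0.059 against 2.87 ± 0.261 CPM (SD, n = 3) each t-DHEA value was above each t-PBS value. The log2 fold change of 0.21 ± 0.20 (SE) was not called, with an unadjusted p of 0.307. It was the one chain with groups apart in the higher direction.

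Within the trimer, the balance of chains was compared as a ratio of FPKM in each liver. Col6a1 to Col6a2 was 1.31, 1.33 and 1.35 in t-PBS and 1.60, 1.32 and 1.14 in t-DHEA. The t-DHEA livers thus lay on both sides of the t-PBS range (exact permutation test, two-sided, p = 0.9). Col6a3 to Col6a2 was 0.195, 0.168 and 0.187 in t-PBS and 0.175, 0.117 and 0.161 in t-DHEA, with overlapping groups (exact permutation test, two-sided, p = 0.2). With 3 livers against 3 this test cannot give a p under 0.1. The summed type VI level lay in 2 separate ranges, 166 to 201 CPM in t-PBS and 118 to 132 CPM in t-DHEA.

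**Figure D3:**
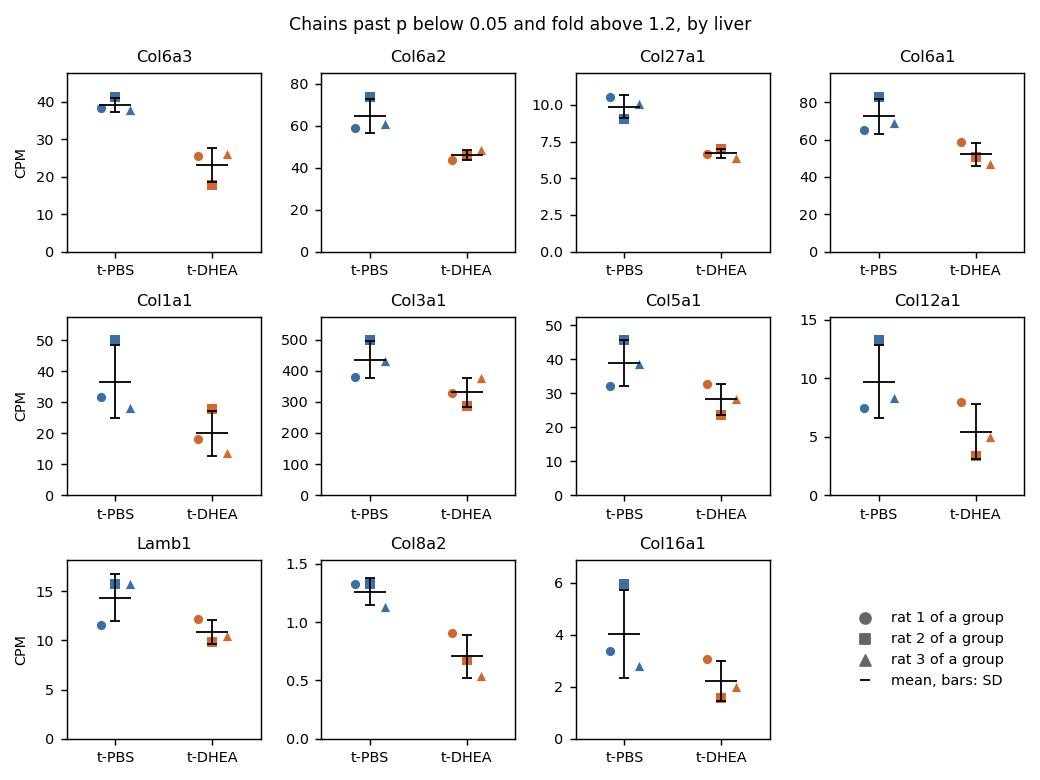
CPM in each liver of the 11 chains called lower, each panel starting at 0, with the mean and the SD of each group and the rat number as the shape. In Col6a3, Col6a2, Col27a1 and Col6a1 the groups are apart, whereas in Col5a1, Col12a1, Lamb1 and Col16a1 they overlap.

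All 8 fibrillar chains tested had a lower estimate (median log2 fold change -0.52), and 4 of them were called. The share of all genes tested that was called lower was 2.98%. The class had 11 rows. Col1a2 and Col2a1 had no count in any liver, and Col11a1 had 7 counts in all. The summed fibrillar level was 479, 633 and 533 CPM in t-PBS and 413, 360 and 447 CPM in t-DHEA, so that the groups did not overlap, and Col3a1 made up most of it. The median stayed between -0.62 and -0.45 with each liver left out.

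Col3a1 (chromosome 9, 52023295 to 52059217) had 5406, 6766 and 5700 counts in t-PBS against 3985, 3818 and 4868 in t-DHEA. This was 436 ± 60.1 CPM in t-PBS and 330 ± 45.2 CPM in t-DHEA (SD, n = 3). The groups were apart by a narrow margin, with 379 CPM in the lowest t-PBS liver and 376 CPM in the highest t-DHEA liver. Its log2 fold change was -0.40 ± 0.14 (SE) with an unadjusted p of 0.0192, and the call was lost when t-DHEA rat 2 was left out (-0.30) and when t-PBS rat 2 was (-0.29). Collagen III is the fine reticular fibre of the liver lobule. Per length, Col3a1 was the most abundant fibrillar chain with counts here, while Col1a2 of collagen I had none.

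Col1a1, which makes the main chain of collagen I, lies on chromosome 10 from 82745801 to 82762789. It had 454, 679 and 371 counts in t-PBS and 220, 372 and 178 in t-DHEA, or 36.6 ± 11.8 against 19.9 ± 7.195 CPM (SD, n = 3). The groups were just apart, at 28.0 CPM in the lowest t-PBS and 27.8 CPM in the highest t-DHEA liver. The log2 fold change was -0.88 ± 0.28 (SE) with an unadjusted p of 0.0129, and without t-PBS rat 2 it was -0.58 and not called. Among the t-DHEA livers Col1a1 was highest in rat 2. The ratio of Col3a1 to Col1a1 in FPKM was 14.6, 12.2 and 18.8 in t-PBS and 22.1, 12.6 and 33.4 in t-DHEA, with overlapping groups (exact permutation test, two-sided, p = 0.3).

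Collagen I is usually a trimer with 1 chain from Col1a2, and that gene was listed at 0 in all 6 livers, each with a limit of 3 counts. Genes that nearly every cell uses, such as Rps6, Rpl8 and Hprt1, were also at 0 throughout the table. A row at 0 therefore need not mean expression under the limit, and how the counting treated these genes was not tested.

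Col27a1, a fibrillar chain best known from cartilage, varied little between the rats of a group. Its counts were 151, 123 and 133 in t-PBS and 81, 94 and 83 in t-DHEA, or 9.89 ± 0.767 against 6.71 ± 0.311 CPM (SD, n = 3). The groups were apart, and the log2 fold change of -0.56 ± 0.13 (SE) had an unadjusted p of 0.00248. It was called with each liver left out and in the 7 other fits, though its fold of 1.47 did not reach 1.5. Its promoter is shown because this chain kept its call in those fits, with the GC box in capitals, from RefSeq build GRCr8 at chr5:81662658-81662907 on the plus strand.
Col27a1: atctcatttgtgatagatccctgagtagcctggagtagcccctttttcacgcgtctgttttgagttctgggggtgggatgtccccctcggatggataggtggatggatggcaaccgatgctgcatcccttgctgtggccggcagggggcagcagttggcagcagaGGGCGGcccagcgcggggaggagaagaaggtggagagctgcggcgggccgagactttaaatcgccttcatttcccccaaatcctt
A GC box was found before 5 of the 7 called chains that have a RefSeq promoter entry and before 17 of the 25 tested chains that have one. It was found before 53.5% of the 43 chain promoters found and before 30.5% of all promoters. Chain promoters were also richer in G and C, with a median of 58.4% against 51.2%, and the part of base composition in the motif share was not tested. A TATA box was found before 0 of the 7 and 2 of the 25, against 12.9% of all promoters. For the CCAAT box it was 0 of the 7 and 5 of the 25, against 34.0% of all promoters. No match says only that these letters are not in the window.

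The type V chains, which set the diameter of fibrils from within, were led by Col5a1. It had 459, 620 and 513 counts in t-PBS and 397, 315 and 368 in t-DHEA, or 38.8 ± 6.77 against 28.2 ± 4.61 CPM (SD, n = 3). The groups overlapped, with t-DHEA rat 1 above t-PBS rat 1, and its log2 fold change was -0.46 ± 0.16 (SE) with an unadjusted p of 0.0197. This call, too, was lost with t-DHEA rat 2 left out (-0.34) and with t-PBS rat 2 left out (-0.32). Its partner Col5a2, 33.3 kb from Col3a1, ran from 22.3 to 25.3 CPM in t-PBS and from 14.4 to 24.3 CPM in t-DHEA, and its log2 fold change of -0.26 ± 0.18 (SE) was not called. Col5a3, with 89 counts in all, had the largest estimate of any tested chain, -1.004 ± 0.52 (SE), with overlapping groups and no call. The estimates of the minor chains Col24a1 (-0.82) and Col11a2 (-0.47) were not called either, on 52 and 75 counts in all.

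Type IV chains, the network of the basement membrane, gave no call, where 2.98% of all genes tested were called lower and 1.97% higher. Of 5 rows, 4 were tested, and their estimates were all lower, with a median log2 fold change of -0.18. That median was 0.03 when t-DHEA rat 2 was left out and -0.38 when rat 1 was, so its sign rested on 1 liver. The summed level was 156, 211 and 171 CPM in t-PBS and 190, 115 and 169 CPM in t-DHEA, where only t-DHEA rat 2 lay under the t-PBS range.

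Col4a1 and Col4a2 make the main trimer of this network, and their genes are read in opposite directions from a shared start region. In RefSeq build GRCr8 their annotated starts are 76 bases apart, and these bases, at chr16:84885521-84885596, are shown on the plus strand because both genes share them, with the letters of a GC box on the other strand in capitals.
Col4a1-Col4a2: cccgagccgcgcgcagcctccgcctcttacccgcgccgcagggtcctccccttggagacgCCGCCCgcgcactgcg
G and C made up 78.9% of this stretch. In the Rnor_6.0 annotation of the files the same genes lie 83.6 kb apart. These distances come from different builds, and whether a gene model of the files begins elsewhere was not tested. If a model leaves exons out, their reads would not be in its count.

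Col4a1 (chromosome 16, 83522162 to 83632153) had 1208, 1614 and 1243 counts in t-PBS and 1218, 842 and 1179 in t-DHEA. At 99.1 ± 17.8 against 84.8 ± 19.5 CPM (SD, n = 3) the groups shared a range, and the log2 fold change was -0.22 ± 0.19 (SE). Col4a2 was at 45.5 ± 8.75 against 43.6 ± 9.06 CPM (SD, n = 3), with a log2 fold change of -0.06 ± 0.18 (SE). Neither was called, and the estimate of Col4a2 turned to 0.11 when t-PBS rat 2 was left out and to 0.10 when t-DHEA rat 2 was. Their ratio was steadier than either level. Col4a1 to Col4a2 in FPKM was 1.64, 1.61 and 1.66 in t-PBS and 1.49, 1.41 and 1.46 in t-DHEA, lower in each t-DHEA liver than in any t-PBS liver. The exact permutation test, two-sided, gave p = 0.1, the smallest it can give, and 0.3 after adjustment over the 6 ratios tested. This ratio compares unlike parts of the genes if their models are cut differently, though in the same way in every liver.

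Col4a4 and Col4a5, chains of the networks found in kidney and other specialised membranes, ran from 17.7 to 19.2 CPM and from 13.3 to 17.2 CPM in t-PBS. In t-DHEA they ran from 10.3 to 17.8 CPM and from 8.45 to 20.8 CPM, again with rat 2 as the lowest liver. Their log2 fold changes of -0.28 ± 0.19 and -0.14 ± 0.28 (SE) were not called. Col4a6 had 3, 9 and 9 counts in t-PBS and 2, 1 and 0 in t-DHEA, too few for the filter. Without the filter its unadjusted p was 0.0183 and its adjusted p 0.895 in edgeR's quasi-likelihood test.

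Among the laminins 1 of 9 tested chains was called lower, against 2.98% of all genes tested. Lama1, the alpha chain of the embryonic laminin, had no count in any liver, and Lamc3 had 22 counts in all. The median log2 fold change of the 9 was -0.17, with 7 lower and 2 higher estimates. It was -0.01 without t-PBS rat 2. The summed level overlapped between groups, at 90.5, 118 and 95.3 CPM in t-PBS and 100, 78.0 and 89.9 CPM in t-DHEA.

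Lamb1, a beta chain of many tissues, had 165, 214 and 208 counts in t-PBS and 148, 132 and 135 in t-DHEA, or 14.3 ± 2.41 against 10.8 ± 1.23 CPM (SD, n = 3). The groups overlapped, because t-PBS rat 1 lay below t-DHEA rat 1. Its log2 fold change was -0.40 ± 0.16 (SE) with an unadjusted p of 0.0313, and it was called with t-PBS rat 1 or t-DHEA rat 1 left out. Its log2 fold change was -0.33 to -0.37 without each of the other livers, with no call there or with DESeq2. The other beta chain of vessels, Lamb2, was lower in every t-DHEA liver, with 15.9 to 17.4 CPM in t-PBS and 13.7 to 15.5 CPM in t-DHEA. With a log2 fold change of -0.19 ± 0.11 (SE) and an unadjusted p of 0.117 it was not called.

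The gamma chain Lamc1, the most abundant laminin per length, ran from 37.3 to 51.1 CPM in t-PBS and from 32.4 to 42.8 CPM in t-DHEA, with a log2 fold change of -0.17 ± 0.15 (SE). The chains Lama3 and Lamb3, which share a laminin of epithelia, had log2 fold changes of 0.09 ± 0.40 and -0.18 ± 0.49 (SE) on 86 and 62 counts in all.

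The alpha chains, which carry the sites that cells bind, gave small estimates with overlapping groups. Lama2, the alpha chain best known from muscle, ran from 10.1 to 12.5 CPM in t-PBS and from 9.27 to 13.5 CPM in t-DHEA (log2 fold change 0.07 ± 0.17, SE). Lama4, found in vessels, ran from 5.95 to 11.4 CPM and from 6.20 to 9.32 CPM (-0.16 ± 0.25, SE). Lama5, the alpha chain of mature basement membranes, ran from 1.81 to 4.86 CPM and from 2.32 to 3.78 CPM (-0.09 ± 0.36, SE). For Lama2, Lama3, Lama4, Lama5 and Lamb3 the sign of the estimate turned when 1 liver was left out.

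Col18a1, the most abundant of the chains with counts, had 8824, 7199 and 6957 counts in t-PBS and 6666, 6397 and 6705 in t-DHEA. At 558 ± 52.3 against 515 ± 35.9 CPM (SD, n = 3) the groups overlapped, with t-DHEA rat 1 above t-PBS rats 2 and 3. The log2 fold change of -0.11 ± 0.11 (SE) had an unadjusted p of 0.329 and was not called. Its relative Col15a1, a multiplexin of basement membrane zones, had no count in any liver.

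The fibril-associated collagens, which sit on the surface of fibrils, gave 2 calls among 4 tested chains, against 2.98% of all genes tested called lower. Col12a1 was at 7.49, 13.3 and 8.30 CPM in t-PBS and 8.003, 3.36 and 4.94 CPM in t-DHEA, and Col16a1 at 3.36, 5.97 and 2.79 CPM and at 3.05, 1.57 and 2.01 CPM. In both, t-PBS rat 2 was above all other livers and t-DHEA rat 1 lay within the t-PBS range. The log2 fold changes were -0.84 ± 0.32 and -0.88 ± 0.36 (SE) with unadjusted p of 0.0292 and 0.0373, and each was called in 3 of the 6 fits with 1 liver left out. The calls were lost with t-PBS rat 2 left out (-0.54 and -0.48), with t-DHEA rat 2 left out (-0.58 and -0.68) and with t-DHEA rat 3 left out (-0.77 and -0.81). Col14a1, the most abundant of this class at 10.6 FPKM, had a log2 fold change of -0.14 and Col22a1 one of -0.61, neither called. Col9a1 and Col19a1 had no count, and Col9a2, Col9a3 and Col20a1 had 1, 12 and 31 counts in all.

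Of the remaining collagens only the short-chain network gave a call, for 1 of 2 tested chains, against 2.98% of all genes tested called lower. Col8a2, with Col8a1 a chain of the hexagonal net of collagen VIII, was at 1.33, 1.33 and 1.13 CPM in t-PBS and 0.908, 0.673 and 0.540 CPM in t-DHEA. The groups were apart, on 79 counts in all, and the log2 fold change of -0.84 ± 0.34 (SE) had an unadjusted p of 0.0353. With 1 liver left out it was called in 1 of 6 fits, the one without t-DHEA rat 1 (-1.05), and ran from -0.91 to -0.67 in the others. It was not called with DESeq2 or without the filter either, with unadjusted p of 0.133 and 0.0552. Col8a1 was not called (-0.27 ± 0.34, SE). Col10a1, the collagen of hypertrophic cartilage, had no count, although it overlaps Nt5dc1, which had 1542 counts.

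The transmembrane collagens were represented by Col13a1, which ran from 5.88 to 7.69 CPM in t-PBS and from 7.26 to 9.98 CPM in t-DHEA and was not called (0.26 ± 0.18, SE). Both rows of Col23a1 had no count, and Col17a1 and Col25a1 had 6 and 2 counts in all. Of the last 3 rows Col7a1, the anchoring fibril, had 5, 7 and 9 counts in t-PBS and 3, 1 and 3 in t-DHEA, while Col26a1 had 2 and Col28a1 13 counts in all. Without the filter Col7a1 had an unadjusted p of 0.0594 and was not called.

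**Figure D4:**
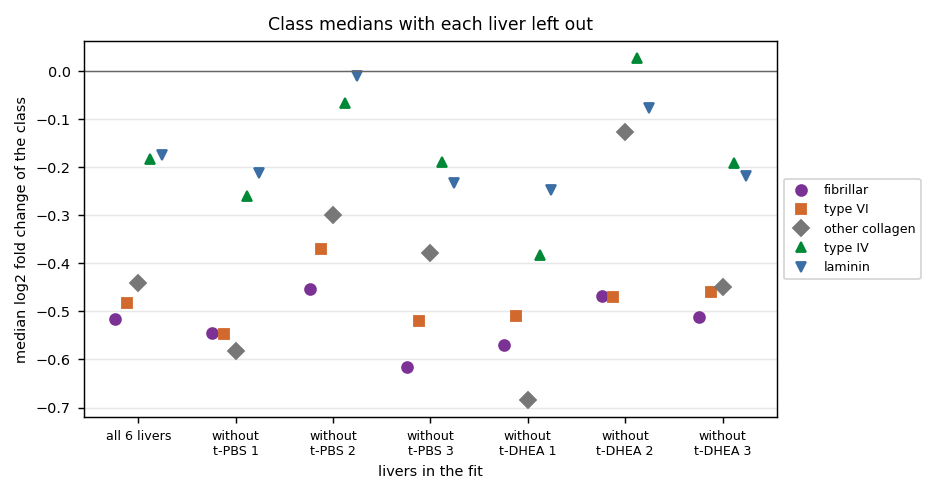
Median log2 fold change of each class of tested chains with all 6 livers and with each liver left out. The fibrillar and type VI medians stay under -0.369 in every fit, the highest being type VI without t-PBS rat 2. The type IV median rises to 0.03 without t-DHEA rat 2 and the laminin median to -0.01 without t-PBS rat 2.

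For the genes that fold and cross-link collagens the estimates were mostly lower. Of 29 listed, 25 were tested, with 19 lower and 6 higher estimates and a median of -0.27. Called lower were 7, and 0 were called higher, against 2.98% and 1.97% of all genes tested. The number lower was 2 (Lox and Plod2) with t-PBS rat 2 left out and 4 with t-DHEA rat 1 left out. With t-DHEA rat 2 left out it was 5, of which 3 (Lox, P3h1 and Plod2) were among the 7. They were Plod2 (-1.03), which hydroxylates lysines for cross-links, Lox (-0.85) and Loxl1 (-0.78), which oxidise them, Adamts2 (-0.67), which removes the amino end of procollagen, Pcolce (-0.52), which aids removal of the other end, the collagen chaperone Serpinh1 (-0.37) and the prolyl hydroxylase P3h1 (-0.26). Plod2 was at 3.85, 5.53 and 3.77 CPM in t-PBS and 2.72, 1.495 and 2.24 CPM in t-DHEA, with groups apart. Those with the highest level, P4hb at 599 FPKM and Ppib at 175 FPKM, also serve proteins other than collagen, and their log2 fold changes of 0.12 and 0.14 were not called.

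Among 25 partners of fibrils, 18 rows were tested and 16 had lower estimates and a median of -0.28. Called lower were 4 and called higher 0, against 2.98% and 1.97% of all genes tested. With t-PBS rat 2 left out, 2 (Efemp1 and Fmod) were called. With t-DHEA rat 2 left out there were 5, of which Efemp1, Fmod and Lum were among the 4. Fmod (-1.95) and Lum (-1.08) are small proteoglycans that bind fibrils, as does Bgn (-0.27), and Efemp1 (-1.60) is a fibulin. Fmod was at 5.18, 2.73 and 2.41 CPM in t-PBS and 0.743, 0.523 and 1.39 CPM in t-DHEA. Fn1, which hepatocytes secrete into plasma, had the highest level at 245 FPKM and was not called (0.10), and Bgn followed at 84.7 FPKM.

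For 17 partners of the basement membrane, 15 were tested and 14 had lower estimates, with a median of -0.16. Of these, 4 were called lower and 0 higher, against 2.98% and 1.97% of all genes tested. Smoc2 alone was called with t-DHEA rat 2 left out, and 2 genes with t-PBS rat 2, t-PBS rat 3 or t-DHEA rat 3 left out. The 4 were Frem2 (-1.22), Smoc2 (-0.995), the laminin receptor Bcam (-0.59) and the collagen-binding Sparc (-0.28). Frem2 had 11, 14 and 13 counts in t-PBS and 8, 3 and 4 in t-DHEA. It thus passed the filter only through the t-PBS livers, where it was higher. Smoc2 was at 6.30, 7.07 and 5.51 CPM in t-PBS and 3.47, 2.62 and 3.40 CPM in t-DHEA, with groups apart. Sparc, the highest of the list at 104 FPKM, was at 220, 252 and 235 CPM in t-PBS and 197, 181 and 204 CPM in t-DHEA, also apart, and Smoc1 at 35.5 FPKM was not called (-0.04).

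Among 19 receptors of collagen and laminin, 12 were tested, with 7 lower and 5 higher estimates and a median of -0.04. Called lower were Itgb4 (-0.79), the integrin beta chain of hemidesmosomes, and Antxr1 (-0.63), which binds collagens, and 0 were called higher. Over all genes tested, 2.98% were called lower and 1.97% higher. The syndecans Sdc4 and Sdc1 had the highest levels, at 71.2 and 40.8 FPKM, and log2 fold changes of 0.03 and 0.15 without a call. Gp6, the collagen receptor of platelets, had 3 counts in all.

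Markers of other liver cells moved with these groups. Beside the calls of every marker list stand the 2.98% of all genes tested that were called lower and the 1.97% called higher. Of 9 mesothelium markers, 7 were tested, all with lower estimates and 5 called lower, at a median log2 fold change of -1.73. Bnc1 and Wt1 were below the filter. Without t-DHEA rat 2 the median was -1.29, with 5 called lower and 1 called higher. Of these calls, 4 were shared with the fit of all livers. The summed level was 39.7 to 45.8 CPM in t-PBS and 3.29 to 31.6 CPM in t-DHEA. Of 6 bile duct markers tested, 5 had lower estimates and Krt7 and Krt19 were called lower, Krt19 being on both lists. Their summed level was 42.0 to 48.7 CPM in t-PBS and 31.6 to 38.5 CPM in t-DHEA. For red cell markers the sum was 180 to 280 CPM in t-PBS and 295 to 575 CPM in t-DHEA, with Hba1 and Hbb called higher among 4 tested. The highest of these sums was that of t-DHEA rat 2, without which Hba1 alone was called and the median log2 fold change was 0.09 instead of 0.54. The part of mesothelium, bile duct and blood in the chain differences was not tested.

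Markers of the main collagen-making cells overlapped between groups. The stellate cell sum was 417 to 424 CPM in t-PBS and 382 to 467 CPM in t-DHEA, with 8 of 10 estimates lower and 0 called, or 1 lower and 1 higher without t-DHEA rat 2. The portal fibroblast sum was 393 to 503 CPM and 376 to 449 CPM, with 5 of 5 tested lower, a median log2 fold change of -0.35 and 0 called (Eln lower without t-DHEA rat 2), Mfap4 at 0 and Gli1, Pi16 and Thy1 below the filter. Dpt alone supplied 358 to 486 CPM of that sum. The sums also overlapped for vascular smooth muscle, where Tagln was called higher and Cnn1 was below the filter, for sinusoidal endothelium, where Kdr was called higher but not without t-DHEA rat 2, for Kupffer cells, where 9 of 9 tested had higher estimates and 0 were called (Cd163 higher without t-DHEA rat 2), and for hepatocytes, where Tat was called higher. Without t-DHEA rat 2, the 3 type VI partners, Col1a1 and Col27a1 were called lower. Col3a1, Col5a1, Col12a1, Col16a1, Lamb1 and Col8a2 were not, and Col24a1, with 52 counts in all, was called in addition. The mesothelium sums of the t-DHEA rats left in that fit, 21.5 and 31.6 CPM, were also under the t-PBS range. The part of mesothelium in these calls was not tested.

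**Figure D5:**
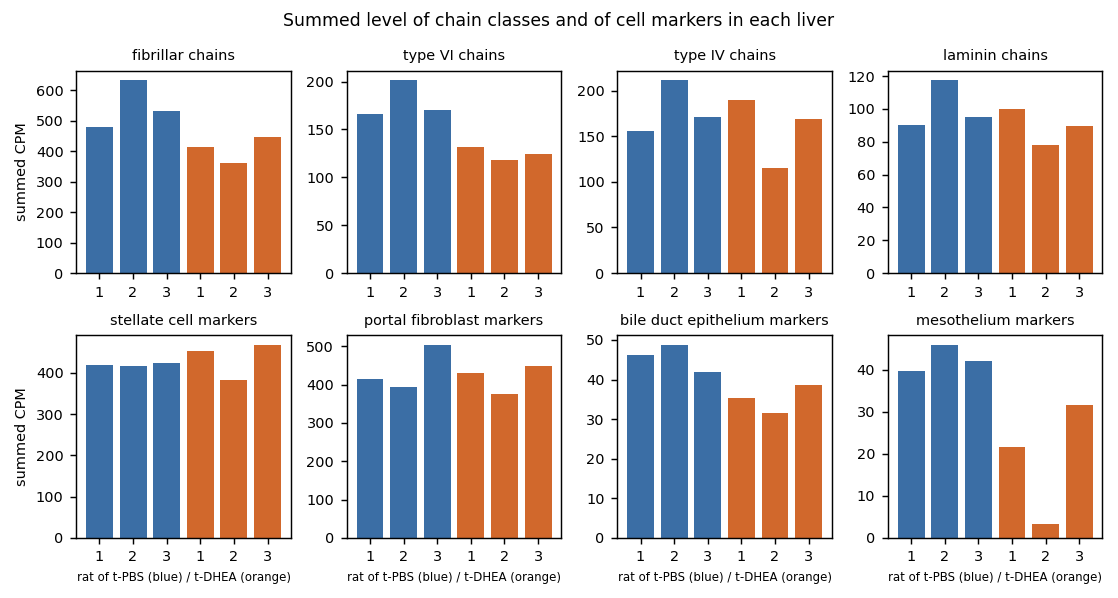
Summed CPM in each liver of 4 classes of chains (top) and of 4 lists of cell markers (bottom), each panel starting at 0, with t-PBS rats 1 to 3 in blue and t-DHEA rats 1 to 3 in orange. The fibrillar and type VI sums are lower in every t-DHEA liver, as are the bile duct and mesothelium sums, while the stellate cell and portal fibroblast sums overlap.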

How the data were processed

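Total RNA of snap-frozen liver was sequenced as paired-end libraries from 3 t-PBS and 3 t-DHEA rats. After read filtering, the authors used HISAT2 2.0.4 to align to Rnor_6.0 and StringTie 1.3.0 to obtain a raw count for each gene. The FPKM columns deposited beside them are those counts over library total and a fixed length per gene, within a relative range of 0.000969. The annotation release and the strand setting are not given in the sources used here, so overlapping genes are uncertain. Counts per library were 12348511 to 14316886, and no pair of libraries agreed within sampling noise (lowest chi-square per degree of freedom 16.2).

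Counts were tested with edgeR 4.0.16 in R 4.3.3: its default filter for low counts, TMM factors and the quasi-likelihood test, two-sided, with no block, and p-values adjusted by Benjamini-Hochberg over all genes tested. The study based its edgeR test on FPKM, whereas the counts were used here. CPM was computed over the TMM-scaled library. Standard errors came from the test statistic. The labels do not say whether litters or cages were separate, so p-values measure the spread between these livers. Members, classes and lists were chosen with earlier results of these data known. Named were all called chains, the tested chains of types I, III, IV, V, VI, XV and XVIII and all laminins but 1 that is not reported here, all rows at 0, and in each companion list the called genes and the 2 with the highest FPKM; other chains were named to account for every row. Counts and sums include the laminin left out. Of 170 list entries, 165 matched by name, 2 otherwise and 3 not at all. Promoters were matched by symbol for 43 of 54 names.

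Alternatives were DESeq2 1.42.0, its size factors within edgeR, the likelihood-ratio test, dropping the filter, requiring 10 counts per liver, limma 3.58.1 on log2(FPKM + 0.1), a block for rat number, omission of each liver, and a fold-change over 1.5.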

Additional observations from a re-analysis of the deposited data

How the results depend on the processing

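Chains called lower numbered 11, and between 9 and 12 with DESeq2, its size factors, edgeR's likelihood-ratio test, limma on FPKM, the filter dropped, or 10 counts required per liver. They numbered 5 at a fold-change over 1.5. Leaving out 1 liver gave 4 to 15, and 0 chains were called higher in any fit. Of the 11, 4 were shared when t-PBS rat 2 was left out, and 11, 5 and 7 when t-DHEA rat 1, 2 or 3 was. All genes called numbered 604, and 275 at a fold-change over 1.5, 414 with DESeq2, 514 to 747 with 1 liver left out. The cause of these shifts was not tested.

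Rat numbers are shared by the groups, but livers of the same number did not deviate together (correlations of -0.052, -0.063 and -0.039 over genes), so the numbers were not taken to pair the livers. With the replicate block, 7 chains were called lower, all among the 11, and 539 genes in all. Col12a1, Col16a1, Lamb1 and Col8a2 lost their call there.

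Without 1 liver the median log2 fold change ran from -0.45 to -0.19 over all chains, from -0.62 to -0.45 for fibrillar, from -0.55 to -0.37 for type VI, from -0.25 to -0.011 for laminin, from -0.38 to 0.03 for type IV and from -0.69 to -0.13 for the other collagens. The last was -0.44 with all livers and -0.12 with no filter, which adds rows of few counts.

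No chain that was called turned its direction. Signs turned with 1 liver left out for chains without a call: Col4a2 (-0.18 to 0.11), Col4a5 (-0.53 to 0.13), Col8a1 (-0.75 to 0.058), Col14a1 (-0.25 to 0.038), Lama2 (-0.030 to 0.23), Lama3 (-0.28 to 0.34), Lama4 (-0.36 to 0.11), Lama5 (-0.39 to 0.25) and Lamb3 (-0.52 to 0.37). Lama3 was -0.0024 with limma on FPKM, where the median of all genes was -0.04. The standard errors were 0.52 and 0.53 on the log2 scale for Col5a3 and Col24a1, with 89 and 52 counts in all, and 0.34 for Col8a2 with 79, so depth and spread between livers were not separated.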
